A study of Mus musculus with 24 samples.

Results

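The 44 DNA replication and S phase genes were chosen by symbol from a table of 54838 mouse genes, and all 44 were found there once. They comprise 6 subunits of the replicative helicase, 5 origin licensing genes, 7 genes of helicase activation, 6 of the sliding clamp and its loader, 8 of the polymerases and primase, 5 of single-strand binding and lagging-strand joining, 4 of deoxynucleotide supply and 3 of S phase entry and DNA methylation upkeep. All 44 had an FPKM (fragments per transcript length and per library total) of at least 1 in at least 5 libraries, as did 12899 genes in all, which were tested. The levels come from RNA sequencing of mouse ventral prostate organoids, epithelial cultures grown in drops of basement membrane gel called domes. The organoids with the genotype written as Tmprss2-ERG are called T-ERG, and those written as Tmprss2-fl/fl-ERG are the control. Each genotype had 2 clones, given as biological replicates, and each clone 5 domes of 30 µL seeded with 3000 cells, given as technical replicates, so that there were 20 libraries of 1 dome each. Per the labels' protocols a 4-month-old mouse was the source, and neither the strain, the cells that drive the allele nor whether the 2 clones of a genotype came from separate mice is given in the sources used here. Both genotype names hold Tmprss2, a serine protease gene of prostate epithelium, and ERG, an ETS transcription factor, so the control is not shown to be wild type. The p-values measure only the spread between these clones, or between domes of the same clone.

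In a dividing cell, the origin recognition complex, Cdc6 and Cdt1 load the MCM helicase on DNA before S phase. Cdc45 and the GINS complex then turn it into a moving helicase, which polymerases, their clamp PCNA and its loader follow. Many of these genes are transcribed as cells enter S phase, when cyclin E and its kinase release E2F factors from the retinoblastoma protein. In organoids as in tissue, RNA from bulk material does not tell a larger share of cycling cells from more RNA per cell, and that holds for every level below.

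All 35 members with a RefSeq promoter entry (GRCm38.p6, from 250 bases before to 50 after the annotated start, so 300 bases) were searched on both strands for E2F-like motifs (TTCCCGC or TTGGCGC, and TTCGCGC or TTGCCGC), for CCAAT and for CHR-like motifs (TTTGAA or TTCGAA). The E2F-like motifs can overlap each other and CCAAT, and TTCGAA reads the same on both strands. The windows of Mcm5 and Mcm6 are printed because Mcm5 had the largest difference between the genotypes and Mcm6 the most E2F-like matches, Rrm1 because it had the smallest p between the genotypes, and Ccne1 because it held no E2F-like match yet differed most between the control clones. They lie at chr8:75109259-75109558 (plus strand), chr1:128359656-128359955 (minus strand), chr7:102441445-102441744 (plus strand) and chr7:38107441-38107740 (minus strand). Each reads 5′ to 3′ on the strand of the gene, with E2F-like and CCAAT matches of either strand in capitals.
Mcm5: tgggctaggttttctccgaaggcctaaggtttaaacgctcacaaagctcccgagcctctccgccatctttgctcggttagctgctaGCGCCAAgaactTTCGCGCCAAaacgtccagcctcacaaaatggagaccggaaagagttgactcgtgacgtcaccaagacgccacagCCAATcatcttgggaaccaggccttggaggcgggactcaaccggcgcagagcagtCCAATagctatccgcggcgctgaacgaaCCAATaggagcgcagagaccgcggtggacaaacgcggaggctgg
Mcm6: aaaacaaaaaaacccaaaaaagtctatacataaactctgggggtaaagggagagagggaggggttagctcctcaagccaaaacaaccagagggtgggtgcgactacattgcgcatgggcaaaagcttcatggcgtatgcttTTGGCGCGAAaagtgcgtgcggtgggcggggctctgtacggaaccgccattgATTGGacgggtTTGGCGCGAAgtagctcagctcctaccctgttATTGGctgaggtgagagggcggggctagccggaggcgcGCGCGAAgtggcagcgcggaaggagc
Rrm1: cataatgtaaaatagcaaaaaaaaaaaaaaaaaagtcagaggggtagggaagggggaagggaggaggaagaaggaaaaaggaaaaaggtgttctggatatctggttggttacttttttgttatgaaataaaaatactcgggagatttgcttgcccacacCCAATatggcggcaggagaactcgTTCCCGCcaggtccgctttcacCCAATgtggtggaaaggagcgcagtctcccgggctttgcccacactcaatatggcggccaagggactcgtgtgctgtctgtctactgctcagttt
Ccne1: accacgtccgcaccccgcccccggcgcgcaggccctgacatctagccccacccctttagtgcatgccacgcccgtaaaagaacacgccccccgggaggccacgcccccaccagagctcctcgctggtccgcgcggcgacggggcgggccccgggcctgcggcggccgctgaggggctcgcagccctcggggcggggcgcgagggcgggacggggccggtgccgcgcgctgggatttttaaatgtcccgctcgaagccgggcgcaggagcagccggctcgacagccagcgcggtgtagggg
In Mcm5 the 3 E2F-like matches began at positions -164, -152 and -149 from the start, and the last 2 overlap in 1 run of capitals. Mcm6 held 5 E2F-like matches, of which 4 form 2 overlapping pairs, and 2 CCAAT boxes. Rrm1 held 1 E2F-like match between 2 CCAAT boxes, and Ccne1 had neither motif.

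An E2F-like match was present in 23 of the 35 members with a window, or 65.7%, against 20% of the 9191 tested genes and 10.9% of all 27025 genes that have one. CCAAT was in 62.9% of these members, against 43.3% of tested genes and 41.1% of all genes. CHR-like letters were in 20% of the members, against 16.4% of tested genes and 21.7% of all genes. A gene with several windows counted once if any of them matched, and the median GC content was 60% in member windows, against 61% in those of tested genes. These shares are a description of letters in the windows and were not tested. Rfc2, Mcm4, Pole, Ccne2, Gins1, Gins2, Gins4, Gmnn and Prim2 were not matched to an entry.

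**Figure D1:**
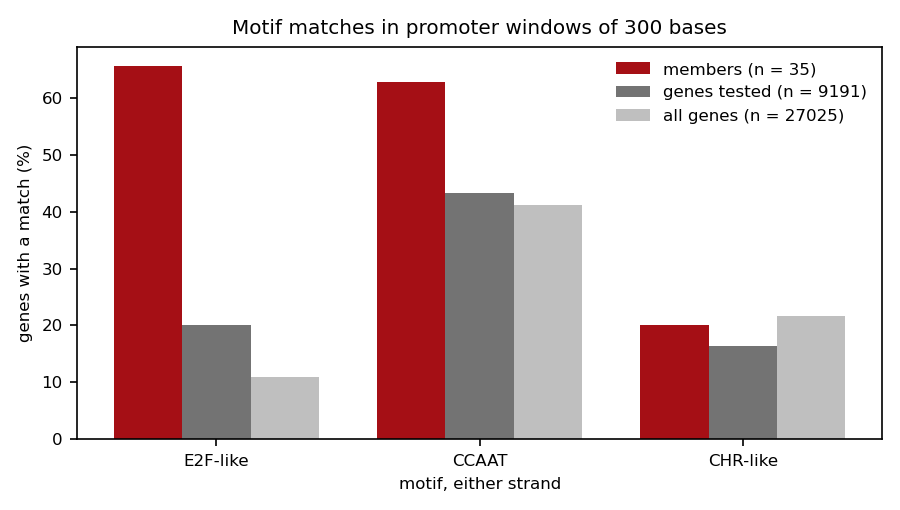
Share of genes (%, vertical axis) whose RefSeq promoter windows of 300 bases hold an E2F-like, CCAAT or CHR-like match, for 35 members, 9191 tested genes and all 27025 genes with a window. The E2F-like bar of the members stands at 65.7%, above the bars of tested genes and of all genes, while the CHR-like bars lie between 16.4% and 21.7%.

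The libraries held 11829 to 12184 genes at an FPKM of at least 1, with FPKM sums of 728255 to 794589. FPKM carries no read counts, so the depth is unknown. Tmprss2 had 32.3 to 57.2 FPKM in the T-ERG libraries and 85.2 to 107.4 FPKM in the control libraries. The epithelial keratins Krt5, Krt14, Krt8 and Krt18 were present in every library. The 13 markers of stroma, endothelium and leukocytes summed to at most 12.9 FPKM, and without Cd68 to at most 0.95 FPKM.

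**Figure D2:**
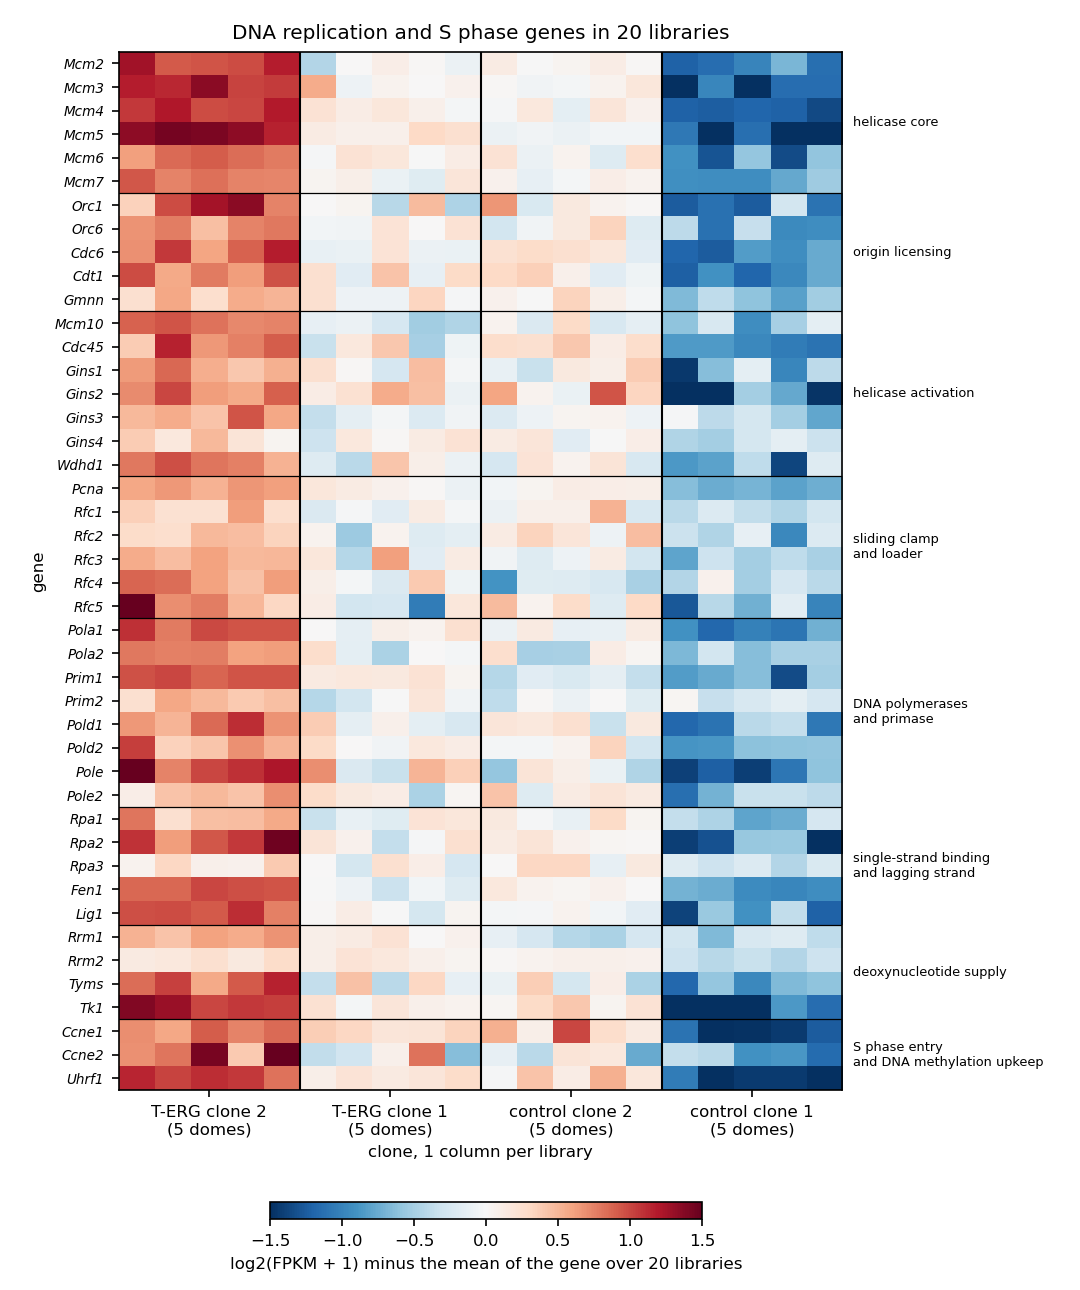
Level of each member (rows, grouped by role) in each library (columns, 5 domes per clone), as log2(FPKM + 1) minus the gene's mean over 20 libraries. The columns of T-ERG clone 2 are highest and those of control clone 1 lowest, with T-ERG clone 1 and control clone 2 close to each other.

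The replication genes followed 1 order over the 4 clones. T-ERG clone 2 had the highest mean of 44 of 44 members, and control clone 1 the lowest of 43 of 44, Rfc4 being the exception. Both held together for 43 members, an order that 23.8% of all tested genes also had. Taking the median over members of the centred log2 level in each library, the mean was 0.75 ± 0.01 in T-ERG clone 2, 0.04 ± 0.05 in T-ERG clone 1, 0.04 ± 0.02 in control clone 2 and -0.75 ± 0.09 in control clone 1 (SD, 5 domes each). The middle pair, T-ERG clone 1 and control clone 2, thus overlapped, while the top and the bottom clone each stood clear of them. The median member had 20.8 to 24.2 FPKM in T-ERG clone 2, 13.4 to 14.7 FPKM in T-ERG clone 1, 13.6 to 14.9 FPKM in control clone 2 and 6.21 to 7.27 FPKM in control clone 1.

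Between the genotypes, all 44 members had a higher mean log2 level in T-ERG than in control organoids, by a median of 0.75 log2 units, against a median of 0.01 over all tested genes. The differences ran from 0.15 for Rpa3 to 1.50 for Mcm5, and none passed the test on 4 clone means (limma adjusted p between 0.574 and 0.804). In that test 0 of 12899 genes passed (0% higher and 0% lower), with a smallest adjusted p of 0.281, and 477 genes (3.7%) were higher and 612 (4.74%) lower at an unadjusted p below 0.05. Among the members, 3 had an unadjusted p below 0.05, namely Rrm1 (0.024), Prim1 (0.0316) and Pole (0.0433). The 2 T-ERG clones each averaged above either control clone in 20 of 44 members, as in 21.7% of tested genes, and in 0 members did they each average below, as in 23.2% of tested genes. In 3 members, Mcm5, Prim1 and Rrm1, the lowest T-ERG library exceeded the highest control library, as in 2.5% of tested genes. A limma fit of the 20 single libraries with a random block for clone called 16 of 44 members higher and 0 lower, where 5.23% of tested genes were called higher and 5.61% lower. In it Mcm5 had an adjusted p of 0.00415, Prim1 0.00344 and Rrm1 0.00464. That fit set 1 correlation between domes of a clone for all genes. Domes held a median of 13.6% of the sum of squares in members, against 45% over all tested genes. The shared value can thus understate the correlation in members, and these p-values can be too small as a measure of genotype. The size depended on which clones were included: the median difference was 1.13 without T-ERG clone 1, 0.39 without T-ERG clone 2, 0.35 without control clone 1 and 1.20 without control clone 2.

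**Figure D3:**
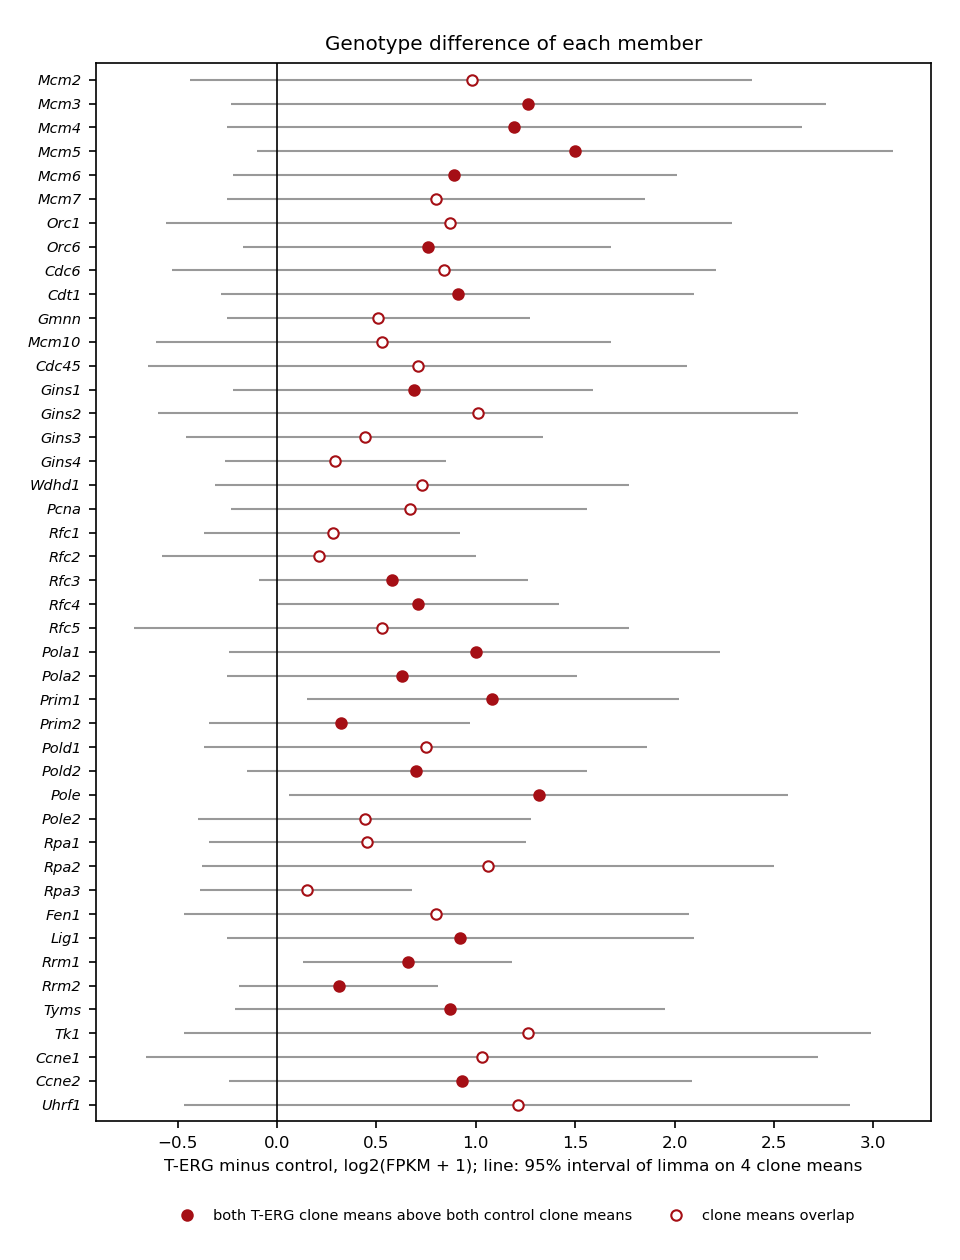
T-ERG minus control difference of each member on the log2(FPKM + 1) scale (horizontal axis) with its 95% interval from limma on 4 clone means, ordered by role. All 44 points lie above 0, from 0.15 to 1.50, the intervals of all but 3 reach 0, and filled points mark the 20 members in which each T-ERG clone averaged above either control clone.

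Within each genotype the replication genes differed between the clones. In T-ERG, 39 of 44 members were higher in clone 2 than in clone 1 and 0 were lower (limma on 5 against 5 domes, adjusted p below 0.05), where 17% of tested genes were called higher and 13.5% lower. The median difference was 0.78 log2 units, against 0.03 over all tested genes, and all 5 domes of clone 2 lay above all 5 of clone 1 for 34 members, as for 12.9% of tested genes. Gins4, Rfc3, Pole2, Rpa3 and Rrm2 did not pass, with differences of 0.21, 0.46, 0.41, 0.21 and 0.08. In control, 37 of 44 members were higher in clone 2 and 0 lower, where 25.1% of tested genes were called higher and 13.2% lower. Here the median was 0.77 log2 units, against 0.10 over all tested genes, and the domes did not overlap for 32 members, as for 18.8% of tested genes. Mcm10, Gins3, Rfc4, Pola2, Prim2, Rrm1 and Ccne2 did not pass. In both genotypes 32 of 44 members were called higher in clone 2, as were 8.61% of tested genes. No source used here says how clones were numbered or whether clone 2 of T-ERG is tied to clone 2 of control. Centring each library on its median changed the split over all genes in control, to 2390 higher and 2287 lower against 3233 and 1706 as deposited, and quantile normalization gave 2354 and 2295. Median centring gave 1847 higher and 2019 lower in T-ERG, against 2199 and 1735 as deposited, and under neither scaling was a member called lower between clones of a genotype. In control, median centring ended the calls of Rfc1 (adjusted p = 0.0701) and Rfc3 (0.0525), leaving 35 members, and quantile normalization those of Gins1 (0.0534), Wdhd1 (0.0513), Rfc1 (0.0728) and Rfc3 (0.0641), leaving 33. In T-ERG, median centring ended the call of Gmnn (0.0539).

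Markers of squamous differentiation did not follow the order of the replication genes. The 19 genes of that list summed to 19684 to 20336 FPKM in T-ERG clone 2, 14727 to 15067 FPKM in T-ERG clone 1, 5271 to 5445 FPKM in control clone 2 and 9673 to 10412 FPKM in control clone 1. Of 18 tested, 11 were called higher and 6 lower in T-ERG clone 2 than in clone 1, and 2 higher and 14 lower in control clone 2 than in clone 1. Over all tested genes 17% were called higher and 13.5% lower in T-ERG, and 25.1% higher and 13.2% lower in control. The markers of stroma, endothelium and leukocytes summed to 1.04 to 6.44 FPKM in T-ERG clone 2, 2.59 to 4.59 FPKM in T-ERG clone 1, 6.04 to 12.9 FPKM in control clone 2 and 4.61 to 6.5 FPKM in control clone 1, and without Cd68, which macrophages and other cells express, to at most 0.92 FPKM in T-ERG clone 2, 0.95 FPKM in T-ERG clone 1, 0.74 FPKM in control clone 2 and 0.69 FPKM in control clone 1. The 11 markers of prostate epithelium had a sum, most of it the basal keratins Krt5 and Krt14, of 21321 to 21699 FPKM in T-ERG clone 2, 16593 to 17232 FPKM in T-ERG clone 1, 12037 to 12317 FPKM in control clone 2 and 8640 to 9700 FPKM in control clone 1. Gene by gene they varied: of 10 tested, 5 were called higher and 3 lower in T-ERG clone 2 than in clone 1, 5 higher and 1 lower in control clone 2 than in clone 1, and 3 had a genotype difference above 0, with a median of -0.46. Epcam, an adhesion gene of epithelia, averaged 120 ± 5.24 FPKM in T-ERG clone 2, 237 ± 14.5 FPKM in T-ERG clone 1, 445 ± 8.11 FPKM in control clone 2 and 169 ± 4.41 FPKM in control clone 1 (SD, 5 domes each). The luminal keratin Krt8 averaged 58 ± 3.12 FPKM in T-ERG clone 2, 37.8 ± 0.773 FPKM in T-ERG clone 1, 126 ± 2.84 FPKM in control clone 2 and 58.2 ± 5.85 FPKM in control clone 1. The part of these markers in the replication gene levels was not tested.

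**Figure D4:**
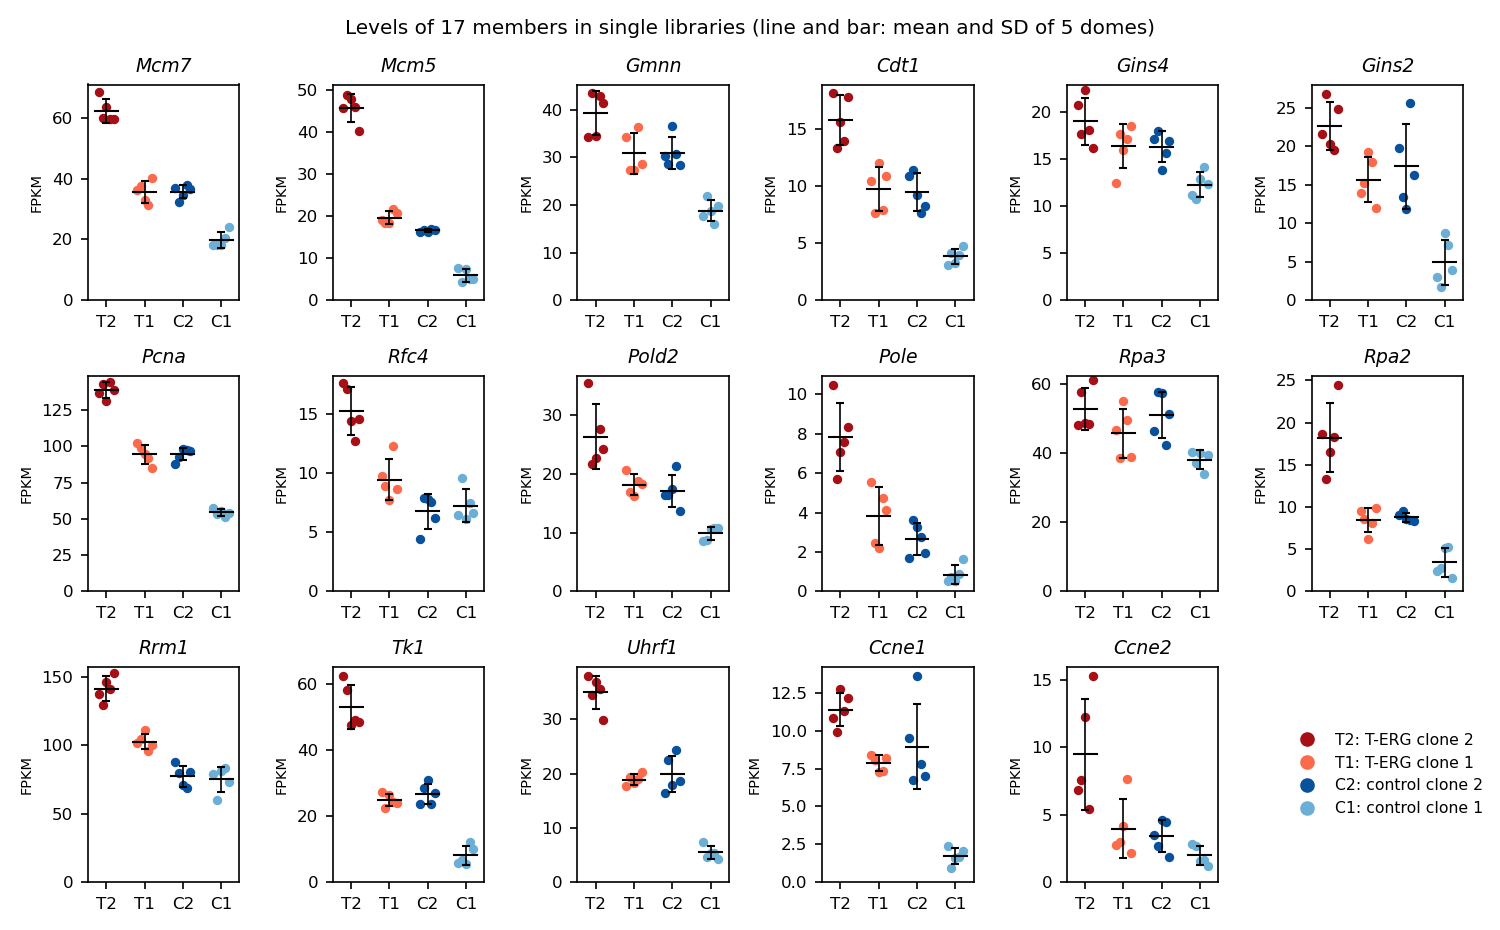
FPKM (vertical axes, from 0) of 17 members in each library, with T-ERG clone 2 (T2) and T-ERG clone 1 (T1) to the left of control clone 2 (C2) and control clone 1 (C1). Points are single domes, lines and bars the mean and SD of 5 domes. In most panels T2 is highest and C1 lowest, while in Gins4, Rfc4, Rrm1 and Ccne2 the C2 and C1 points overlap.

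The MCM2-7 ring, the motor that unwinds DNA at the fork, has 6 subunits. All 6 were called higher in clone 2 in both genotypes, as were 8.61% of tested genes. The subunits differed by 0.70 to 1.18 log2 units in T-ERG and 0.83 to 1.37 in control. Their median genotype difference of 1.09 log2 units was the largest of the 8 roles, and in 4 of 6 the T-ERG clones took the top 2 means. Mcm5 (ENSMUSG00000005410, chr8:75109468-75128439) had 45.8, 48.8, 47.9, 45.9 and 40.2 FPKM in the domes of T-ERG clone 2 and 19.01, 18.4, 18.4, 21.7 and 20.7 FPKM in those of T-ERG clone 1. In control it had 16.3, 16.8, 16.3, 16.98 and 16.9 FPKM in clone 2 and 7.75, 4.40, 7.41, 5.02 and 5.16 FPKM in clone 1. All 4 clones were separate, and every T-ERG library was above every control library. The genotype difference was 1.50 ± 0.61 log2 units, or 2.83-fold on the FPKM + 1 scale (SE over 4 clone means; limma adjusted p = 0.574; 95% interval -0.10 to 3.10), while the clones differed by 1.18 ± 0.07 in T-ERG (adjusted p = 4.11e-07) and 1.37 ± 0.13 in control (adjusted p = 1.17e-05). Mcm7 (ENSMUSG00000029730, chr5:138164583-138172111), the most abundant subunit RNA by FPKM, had 68.3, 59.97, 63.6, 59.7 and 59.4 FPKM in T-ERG clone 2 and 36.2, 37.5, 33.0, 31.2 and 40.1 FPKM in T-ERG clone 1. Control clone 2 had 37.0, 32.3, 34.7, 37.8 and 36.6 FPKM and control clone 1 18.2, 18.1, 18.1, 20.4 and 24.2 FPKM. Control clone 2 lay within the range of T-ERG clone 1, and the other clones lay apart. The genotype difference was 0.80 ± 0.40 (limma adjusted p = 0.574), and the clones differed by 0.79 ± 0.07 in T-ERG and 0.83 ± 0.09 in control. The other 4 subunits had genotype differences of 0.98 for Mcm2, 1.26 for Mcm3, 1.19 for Mcm4 and 0.89 for Mcm6.

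Of the 5 origin licensing genes, all passed the test between clones in both genotypes, higher in clone 2, as did 8.61% of tested genes. Cdt1 (ENSMUSG00000006585, chr8:122568015-122573130) brings the MCM ring to origins, and geminin, encoded by Gmnn (ENSMUSG00000006715, chr13:24751845-24761937), binds Cdt1 and blocks a further round of loading. Cdt1 had 18.1, 13.4, 15.6, 13.9 and 17.8 FPKM in T-ERG clone 2 and 10.4, 7.61, 12.0, 7.90 and 10.8 FPKM in T-ERG clone 1, against 10.9, 11.4, 9.20, 7.63 and 8.26 FPKM in control clone 2 and 3.14, 4.15, 3.25, 3.98 and 4.73 FPKM in control clone 1. The domes of T-ERG clone 1 and control clone 2 overlapped and control clone 1 was below all others. Its genotype difference was 0.91 ± 0.45 (limma adjusted p = 0.574) and its clone differences 0.65 ± 0.14 in T-ERG and 1.11 ± 0.14 in control. Gmnn had 34.3, 43.6, 34.5, 42.9 and 41.4 FPKM in T-ERG clone 2 and 34.4, 27.3, 27.4, 36.4 and 28.5 FPKM in T-ERG clone 1, against 30.3, 28.6, 36.5, 30.7 and 28.3 FPKM in control clone 2 and 17.8, 21.9, 18.7, 16.0 and 19.9 FPKM in control clone 1. The T-ERG clones overlapped, and the call between them (difference 0.34 ± 0.10, limma adjusted p = 0.0274) was lost when any of 6 of the 10 libraries was left out, with adjusted p of 0.0585 to 0.0651. In control the clones did not overlap (0.69 ± 0.09, adjusted p = 0.00016), and the genotypes differed by 0.51 ± 0.29 (adjusted p = 0.584). The differences of Gmnn were the smallest of this role in all 3 comparisons. Orc1 and Orc6, subunits of the origin recognition complex, and the loading factor Cdc6 had genotype differences of 0.87, 0.76 and 0.84. Orc1 was at 0 to 5.11 FPKM over the 20 libraries, and its span on the genome overlaps that of Prpf38a.

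Helicase activation is the step at which Cdc45 and the GINS subunits join the MCM ring with the help of Mcm10 and Wdhd1. Of its 7 genes, 6 were called higher in T-ERG clone 2 and 5 in control clone 2, against 17% and 25.1% of tested genes. The genotype differences lay between 0.29 for Gins4 and 1.01 for Gins2, and Gins1 alone of the 7 had each T-ERG clone averaging above either control clone. Gins2 (ENSMUSG00000031821, chr8:120581266-120589075) had 21.6, 26.8, 20.3, 19.5 and 24.8 FPKM in T-ERG clone 2 and 13.9, 15.2, 19.3, 17.9 and 12.1 FPKM in T-ERG clone 1. Control clone 2 had 19.8, 13.4, 11.9, 25.6 and 16.3 FPKM and control clone 1 2.99, 1.75, 8.75, 7.13 and 4.00 FPKM. The T-ERG clones did not overlap but lay close together, control clone 2 spread across both, and control clone 1 was below all. The clone difference was 0.51 ± 0.13 in T-ERG (limma adjusted p = 0.0128) and 1.73 ± 0.33 in control (adjusted p = 0.00179), while the genotypes differed by 1.01 ± 0.61 (adjusted p = 0.596). In the fit of all 20 libraries, which shares 1 estimate of the spread, the T-ERG clone difference of Gins2 did not pass (adjusted p = 0.164), nor did that of Gins1 (0.51, adjusted p = 0.0559). Gins4 (ENSMUSG00000031546, chr8:23226610-23237668), a partner of Gins2 in the same complex, had 20.7, 17.7, 22.3, 18.1 and 16.2 FPKM in T-ERG clone 2 and 12.5, 17.7, 16.0, 17.2 and 18.5 FPKM in T-ERG clone 1, against 17.1, 18.00, 13.8, 15.7 and 16.96 FPKM in control clone 2 and 11.2, 10.8, 12.9, 14.1 and 12.4 FPKM in control clone 1. Its clones overlapped in both genotypes, although the control difference passed (0.38 ± 0.09, limma adjusted p = 0.0075) and the T-ERG one did not (0.21 ± 0.12, adjusted p = 0.21, 95% interval -0.05 to 0.46). The genotype difference of Gins4 was 0.29 ± 0.21 (adjusted p = 0.641). Mcm10 had a clone difference of 1.11 ± 0.11 in T-ERG (limma adjusted p = 2.83e-05) and 0.44 ± 0.17 in control (adjusted p = 0.0695). The genotype differences of Cdc45, Gins1, Gins3, Mcm10 and Wdhd1 were 0.71, 0.69, 0.44, 0.53 and 0.73 log2 units.

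The sliding clamp encircles DNA and holds polymerases on it, and the 5 RFC subunits open and close it. Pcna (ENSMUSG00000027342, chr2:132249286-132253180), which encodes the clamp, had 136, 143, 131, 144 and 139 FPKM in T-ERG clone 2 and 102, 98.6, 94.5, 91.7 and 85.1 FPKM in T-ERG clone 1, against 87.9, 92.8, 98.1, 97.5 and 96.4 FPKM in control clone 2 and 57.6, 53.5, 55.2, 51.6 and 53.9 FPKM in control clone 1. The domes fell on 3 levels, since T-ERG clone 1 and control clone 2 overlapped and T-ERG clone 2 and control clone 1 lay apart from them. The difference between genotypes was 0.67 ± 0.34 (limma adjusted p = 0.577), between T-ERG clones 0.55 ± 0.05 (adjusted p = 1.58e-05) and between control clones 0.79 ± 0.05 (adjusted p = 1.9e-07). Of 2 annotated copies of Pcna, 1 was listed at 0 in every library and the other reached at most 0.92 FPKM. Rfc4 (ENSMUSG00000022881, chr16:23113948-23127730) was the member that broke the order. It had 17.6, 17.1, 14.4, 12.7 and 14.6 FPKM in T-ERG clone 2 and 9.73, 8.93, 7.74, 12.3 and 8.67 FPKM in T-ERG clone 1, and 4.44, 7.92, 7.83, 7.58 and 6.24 FPKM in control clone 2 and 6.49, 9.61, 6.09, 7.49 and 6.63 FPKM in control clone 1. The control clones overlapped, with a difference of -0.09 ± 0.16 (limma adjusted p = 0.697, 95% interval -0.45 to 0.26), while the T-ERG clones differed by 0.64 ± 0.12 (adjusted p = 0.00235) and the genotypes by 0.71 ± 0.27 (adjusted p = 0.574). Rfc1, Rfc2, Rfc3 and Rfc5 had genotype differences of 0.28, 0.21, 0.58 and 0.53, and all but Rfc3 in T-ERG passed between the clones of both genotypes. Rfc3 was near the threshold there (0.46, adjusted p = 0.052) and passed without library 3 of T-ERG clone 1 (0.59, adjusted p = 0.00464).

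In 6 of the 8 polymerase and primase genes each T-ERG clone averaged above either control clone, as in 21.7% of tested genes. Between clones, 7 were called higher in T-ERG clone 2 and 6 in control clone 2, against 17% and 25.1% of tested genes. Primase and polymerase alpha start each strand, and polymerases delta and epsilon extend it. Pole (ENSMUSG00000007080, chr5:110286319-110337468), the catalytic subunit of polymerase epsilon, had 10.4, 5.72, 7.06, 7.60 and 8.32 FPKM in T-ERG clone 2 and 5.55, 2.47, 2.20, 4.75 and 4.14 FPKM in T-ERG clone 1. The control domes had 1.70, 3.61, 3.27, 2.75 and 1.94 FPKM in clone 2 and 0.52, 0.72, 0.51, 0.90 and 1.64 FPKM in clone 1. Neighbouring clones overlapped only between T-ERG clone 1 and control clone 2, and its levels are low. The genotype difference was 1.32 ± 0.48 (limma adjusted p = 0.574, 95% interval 0.06 to 2.57), with 0.91 ± 0.22 between T-ERG clones and 0.98 ± 0.21 between control clones. Pold2 (ENSMUSG00000020471, chr11:5872180-5878256), the regulatory subunit of polymerase delta, had 35.5, 21.7, 22.7, 27.7 and 24.3 FPKM in T-ERG clone 2 and 20.8, 16.9, 16.2, 18.8 and 18.3 FPKM in T-ERG clone 1, against 16.5, 16.5, 17.5, 21.4 and 13.7 FPKM in control clone 2 and 8.62, 8.76, 10.6, 10.7 and 10.8 FPKM in control clone 1. Again T-ERG clone 1 and control clone 2 overlapped, and the genotype difference was 0.70 ± 0.33 (limma adjusted p = 0.574). Prim1, the catalytic primase subunit, had 24.1 ± 0.799 FPKM in T-ERG clone 2, 13.4 ± 0.596 FPKM in T-ERG clone 1, 9.89 ± 0.952 FPKM in control clone 2 and 6.53 ± 1.5 FPKM in control clone 1 (SD, 5 domes each). Its partner Prim2 averaged 9.86 ± 0.908 FPKM in T-ERG clone 2, 6.5 ± 1.23 FPKM in T-ERG clone 1, 6.4 ± 0.823 FPKM in control clone 2 and 6.07 ± 0.71 FPKM in control clone 1. The genotype differences were 1.08 ± 0.36 for Prim1 and 0.32 ± 0.25 for Prim2. Pola1, Pola2, Pold1 and Pole2 had genotype differences of 1.00, 0.63, 0.75 and 0.44.

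For single-strand binding and the joining of lagging-strand fragments, 4 of 5 genes were called higher in T-ERG clone 2 and 5 of 5 in control clone 2. Over all tested genes the shares were 17% and 25.1%. Replication protein A coats unwound DNA as a trimer of Rpa1, Rpa2 and Rpa3. Rpa2 (ENSMUSG00000028884, chr4:132768360-132778746) had 18.6, 13.3, 16.5, 18.3 and 24.4 FPKM in T-ERG clone 2 and 9.55, 8.63, 6.17, 8.12 and 9.86 FPKM in T-ERG clone 1, against 9.00, 9.58, 8.62, 8.43 and 8.30 FPKM in control clone 2 and 2.45, 2.72, 5.20, 5.26 and 1.54 FPKM in control clone 1. The top and bottom clone were apart from the middle pair, and the genotypes differed by 1.06 ± 0.55 (limma adjusted p = 0.577). Rpa3 (ENSMUSG00000012483, chr6:8255936-8259141), the smallest subunit, had 48.1, 57.7, 48.8, 48.6 and 61.2 FPKM in T-ERG clone 2 and 46.7, 38.5, 55.2, 49.7 and 38.8 FPKM in T-ERG clone 1, against 46.5, 57.7, 57.6, 42.5 and 51.5 FPKM in control clone 2 and 40.5, 37.1, 40.0, 34.1 and 39.5 FPKM in control clone 1. Its domes overlapped between the T-ERG clones and not between the control clones, and its genotype difference of 0.15 ± 0.20 (limma adjusted p = 0.797) was the smallest of all 44. Rpa1, the large subunit, had a genotype difference of 0.45. Fen1, the nuclease that trims the flaps of lagging-strand fragments, and Lig1, the ligase that seals them, had 0.80 and 0.92, with clone differences of 1.05 and 0.97 in T-ERG and 0.92 and 0.85 in control.

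Among the 4 genes of deoxynucleotide supply, 3 were called higher in T-ERG clone 2 and 3 in control clone 2. Over all tested genes the shares were 17% and 25.1%. Rrm1 and Rrm2 encode ribonucleotide reductase, the enzyme that makes deoxynucleotides. Rrm1 (ENSMUSG00000030978, chr7:102441695-102469771), its large subunit, had 138, 129, 146, 141 and 153 FPKM in T-ERG clone 2 and 102, 105, 111, 95.9 and 100.3 FPKM in T-ERG clone 1, against 87.6, 80.1, 71.1, 68.8 and 80.4 FPKM in control clone 2 and 79.0, 60.3, 81.2, 83.2 and 73.0 FPKM in control clone 1. All T-ERG libraries were above all control libraries, the T-ERG clones did not overlap and the control clones did. The genotype difference was 0.66 ± 0.20 (limma adjusted p = 0.574, unadjusted 0.024, 95% interval 0.13 to 1.18), with 0.46 ± 0.05 between T-ERG clones (adjusted p = 8.05e-05) and 0.05 ± 0.09 between control clones (adjusted p = 0.742). In Rrm2, the small subunit, the T-ERG clones averaged 105 ± 4.65 FPKM in clone 2 and 99.5 ± 4.63 FPKM in clone 1, against 95.3 ± 1.74 FPKM in control clone 2 and 71 ± 2.91 FPKM in control clone 1 (SD, 5 domes each). Its difference was 0.08 ± 0.05 in T-ERG (limma adjusted p = 0.239, 95% interval -0.02 to 0.18) and 0.42 ± 0.04 in control (adjusted p = 8.68e-06). Tk1 (ENSMUSG00000025574, chr11:117815519-117826087), the S phase thymidine kinase, had 62.3, 58.0, 47.4, 49.1 and 48.6 FPKM in T-ERG clone 2 and 27.3, 22.5, 26.3, 24.4 and 23.9 FPKM in T-ERG clone 1, against 23.7, 28.4, 30.9, 23.8 and 26.9 FPKM in control clone 2 and 5.85, 6.89, 5.69, 12.3 and 9.95 FPKM in control clone 1. T-ERG clone 2 was above and control clone 1 below the overlapping middle pair. The genotypes differed by 1.26 ± 0.66 (limma adjusted p = 0.578), the T-ERG clones by 1.06 ± 0.09 and the control clones by 1.65 ± 0.19. Tyms, the thymidylate synthase, had a genotype difference of 0.87 and clone differences of 0.93 in T-ERG and 0.73 in control.

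The E cyclins activate the kinase Cdk2 at S phase entry, and Uhrf1 guides maintenance methylation to newly made DNA. Ccne1 (ENSMUSG00000002068, chr7:38097984-38107490) had 10.8, 9.93, 12.7, 11.3 and 12.1 FPKM in T-ERG clone 2 and 8.42, 8.06, 7.26, 7.32 and 8.18 FPKM in T-ERG clone 1, against 9.53, 6.75, 13.6, 7.78 and 7.04 FPKM in control clone 2 and 2.38, 0.98, 1.61, 1.70 and 2.07 FPKM in control clone 1. Control clone 1 stood below all other libraries, and control clone 2 overlapped both T-ERG clones. The clone difference was 1.84 ± 0.20 in control (limma adjusted p = 2.68e-05), the largest of all members in that comparison, and 0.48 ± 0.08 in T-ERG (adjusted p = 0.00131), while the genotypes differed by 1.03 ± 0.65 (adjusted p = 0.601). Ccne2 (ENSMUSG00000028212, chr4:11190433-11204779) had 6.88, 7.59, 12.2, 5.45 and 15.3 FPKM in T-ERG clone 2 and 2.80, 3.02, 4.18, 7.64 and 2.15 FPKM in T-ERG clone 1, against 3.51, 2.71, 4.63, 4.49 and 1.91 FPKM in control clone 2 and 2.83, 2.72, 1.61, 1.68 and 1.20 FPKM in control clone 1. Its domes were scattered and overlapped between neighbouring clones, and the T-ERG clone difference of 1.09 ± 0.31 (limma adjusted p = 0.0212) lost its call without library 8 of T-ERG clone 2 (adjusted p = 0.0522), and the control one did not pass (0.56 ± 0.22, adjusted p = 0.0729). Without library 10 of control clone 2 the control difference of Ccne2 was 0.70 and passed (adjusted p = 0.0257). The span of Ccne2 overlaps that of Ints8. Uhrf1 (ENSMUSG00000001228, chr17:56303337-56323486) had 37.9, 34.5, 36.8, 35.5 and 29.9 FPKM in T-ERG clone 2 and 17.7, 19.3, 18.2, 18.9 and 20.3 FPKM in T-ERG clone 1, against 16.4, 22.5, 17.9, 24.3 and 18.7 FPKM in control clone 2 and 7.46, 4.74, 5.48, 5.48 and 4.36 FPKM in control clone 1. Its 3 levels were those of Pcna, with T-ERG clone 1 inside the range of control clone 2. The differences were 1.21 ± 0.64 between genotypes (limma adjusted p = 0.579), 0.85 ± 0.07 between T-ERG clones and 1.69 ± 0.14 between control clones.

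T-ERG clone 1 and control clone 2, the neighbours in the order, were compared directly on 5 against 5 domes. The comparison is of 2 clones, not of genotypes, and shares its libraries with those above. The pair was picked because earlier results of these data had placed these clones next to each other in replication gene level. Few calls, a small median and intervals near 0 among members thus follow in part from that choice. They are no test of whether the 2 clones are alike. In this comparison 3 of 44 members were called higher in T-ERG clone 1, where 9.09% of tested genes were, and 0 lower, where 15.3% were. The 3 were Mcm5 (0.23 ± 0.06, limma adjusted p = 0.0196), Prim1 (0.41 ± 0.08, adjusted p = 0.00257) and Rrm1 (0.40 ± 0.07, adjusted p = 0.00124). The median difference over members was -0.01 log2 units, against -0.05 over all tested genes, with 20 members above and 24 below 0; it was 0.06 under median centring and -0.06 under TPM scaling. For 32 of 44 members the 95% interval of the difference lay within 0.5 log2 units of 0, and for the other members the domes do not exclude a larger difference. Fen1 was at -0.19 ± 0.07 (adjusted p = 0.0986) with all domes of T-ERG clone 1 below those of control clone 2. Under TPM scaling Fen1 and Rfc2 were called lower and Mcm5 lost its call (0.18, adjusted p = 0.0585), and under median centring 5 members were called higher, Rfc4 and Rrm2 in addition. The call of Mcm5 was also lost in a fit of all 20 libraries (adjusted p = 0.144) and with the replicate number as a block (0.0504), whereas Rfc4 was called higher in the fit of all 20 libraries (0.43, adjusted p = 0.0358) and under quantile normalization (0.51, adjusted p = 0.0466). The split over all genes was 1173 higher and 1971 lower as deposited, 939 and 2431 under TPM scaling and 1566 and 1517 under median centring. All 16 mitosis genes were called higher in T-ERG clone 2 than in clone 1 (median 1.02), and 15 in control clone 2 than in clone 1 (median 1.08). Over all tested genes the shares were 17% and 25.1%. All 16 had a genotype difference above 0 (median 0.89, 0 called). Between T-ERG clone 1 and control clone 2, 6 of the 16 were called lower (Mki67, Ccnb1, Ccnb2, Cdk1, Plk1 and Aurkb) and 0 higher, with a median of -0.16.

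**Figure D5:**
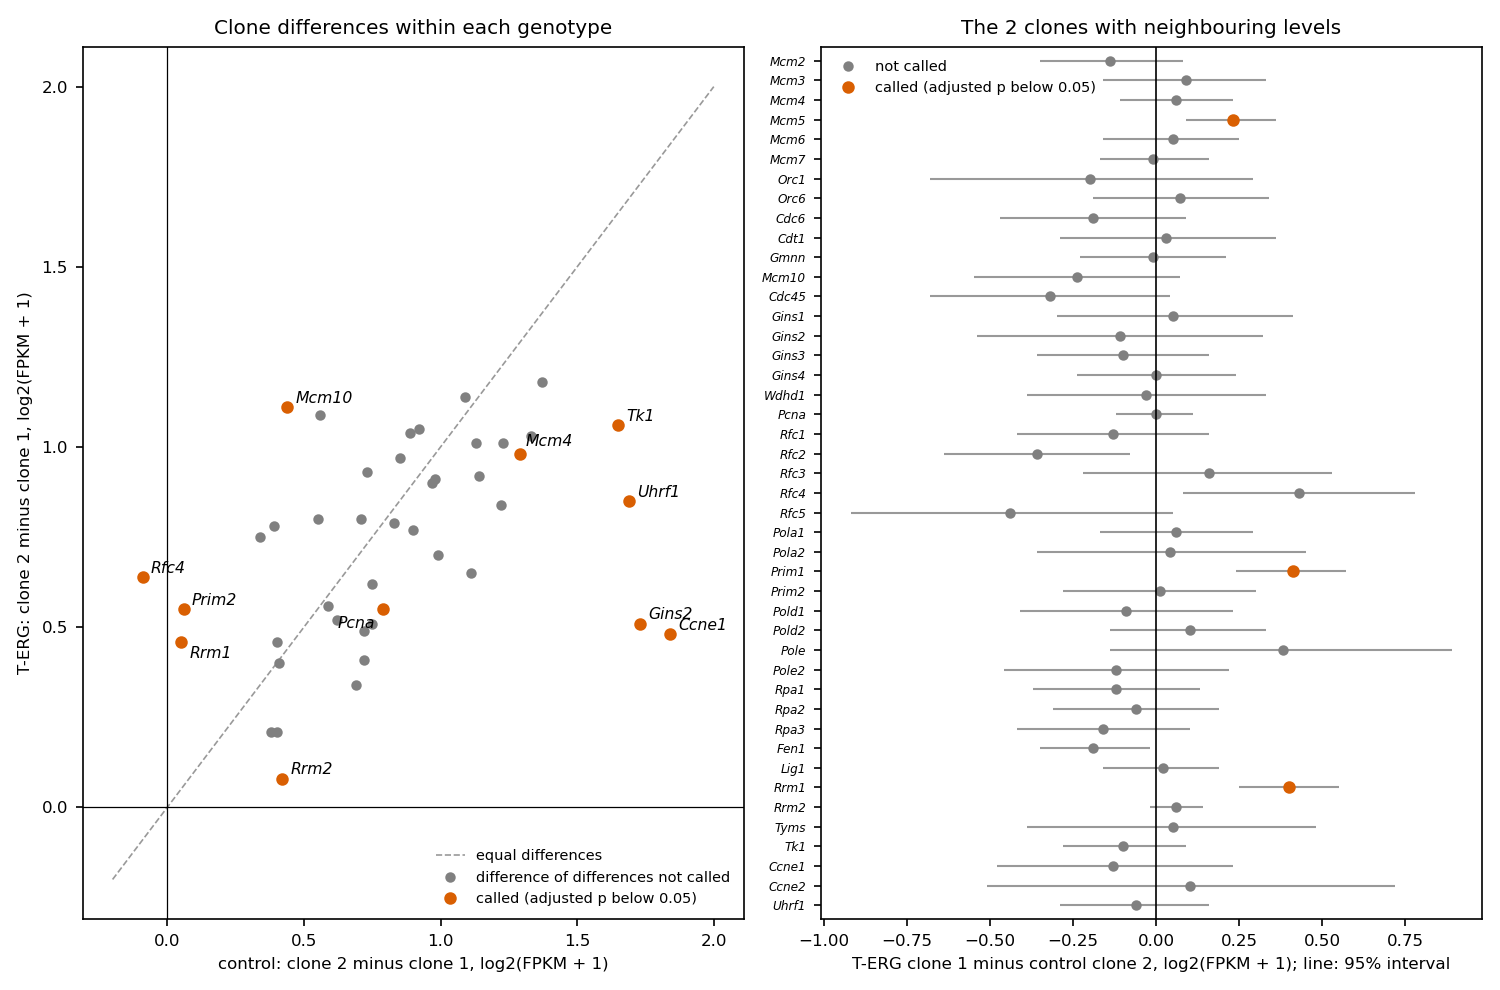
Left, clone 2 minus clone 1 of each member in T-ERG (vertical axis) against the same in control (horizontal axis), log2(FPKM + 1), with the 11 members whose 2 differences differ by test marked; right, T-ERG clone 1 minus control clone 2 with 95% intervals. Most points on the left lie above 0 on both axes, Ccne1 and Gins2 far to the right of the dashed line and Rfc4 left of 0, and on the right only Mcm5, Prim1 and Rrm1 are called.

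How far the clone difference itself differed between the genotypes was tested on all 20 libraries with an interaction term that was added after the data had been seen. Since clone numbers are not shown to match clones across genotypes, the sign, the size and the calls of that term all rest on the numbering. Renumbering the clones of 1 genotype would turn the term into a sum of the 2 clone differences. With the numbers of the labels, the term called 4 members higher, Mcm10, Rfc4, Prim2 and Rrm1 (larger in T-ERG), where 9.75% of tested genes were. Another 7 were called lower, Mcm4, Gins2, Pcna, Rrm2, Tk1, Ccne1 and Uhrf1 (larger in control), where 16.7% were. Out of 44 members, both counts are close to the shares over all tested genes. The largest was Ccne1, whose clone difference was 0.48 in T-ERG and 1.84 in control, a difference of -1.36 ± 0.22 (limma adjusted p = 7.72e-05). Rrm2 had 0.08 in T-ERG and 0.42 in control, a difference of -0.34 ± 0.06 (adjusted p = 0.000106). Rrm1, its partner subunit, had 0.46 in T-ERG and 0.05 in control, a difference of 0.41 ± 0.11 (adjusted p = 0.00971).

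Most of the variation of the members lay between genotypes and clones. Of the sum of squares of a member over 20 libraries, a median of 40.9% lay between genotypes, 45.9% between clones of a genotype and 13.6% between domes of a clone, against 16.4%, 25% and 45% over all tested genes. With 2 clones per genotype, the genotype part also holds differences between clones and does not measure genotype alone. Rrm1 had the largest genotype part, 72.9%, and Rfc2 the smallest, 7.9%, while Rpa3 had the largest dome part, 43.6%. The correlation of each member with the mean of the others over 20 libraries had a median of 0.91, from 0.69 for Rpa3 to 0.99 for Mcm4, with 25 members at 0.9 or more and 7 below 0.8. Libraries of a clone share culture and level, and after each clone mean was subtracted the median was -0.03 (from -0.47 to 0.56), with 20 members above 0 and 2 above 0.5. These correlations describe 20 libraries from 4 clones and carry no test. Members with an E2F-like match (23) had median differences of 0.80 between genotypes, 0.79 between T-ERG clones and 0.85 between control clones, and those without one (12) had 0.70, 0.81 and 0.77.

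Other genes of replication, 65 in 5 lists, had the same direction in most cases. In T-ERG 43 were called higher in clone 2 and 2 lower, where 17% and 13.5% of tested genes were, and in control 39 higher and 1 lower, where 25.1% and 13.2% were. Between the genotypes 57 of 65 had a difference above 0, with a median of 0.56 log2 units, and 0 passed. Each T-ERG clone averaged above either control clone for 27 and below for 2, as for 21.7% and 23.2% of tested genes. Among 12 origin genes the extremes were Topbp1, an activator of origin firing, at 0.73 ± 0.36, and Mcmbp, an MCM binding protein, at 0.05 ± 0.19. Among 18 polymerase subunits and fork factors they were Exo1, an exonuclease of mismatch repair and resection, at 1.31 ± 0.74, and Pold4, an accessory subunit of polymerase delta, at -0.48 ± 0.33. Pold4 was called lower in T-ERG clone 2 than in clone 1 (-0.76 ± 0.08, limma adjusted p = 2.9e-05) and higher in control clone 2 (0.49 ± 0.07, adjusted p = 0.000155). Of 11 genes of nucleotide supply, Nme1, a nucleoside diphosphate kinase, had 1.05 ± 0.53, and Samhd1, which breaks deoxynucleotides down, -0.39 ± 0.36. Samhd1 was called lower in control clone 2, at 30.1 ± 3.52 FPKM, than in control clone 1, at 61 ± 6.84 FPKM (limma adjusted p = 1.25e-05), where 7 of the 11 were called higher. Of 10 genes of histone chaperones and replicated chromatin, Hells, a chromatin remodeller, had 1.33 ± 0.59 and Slbp, the histone mRNA binding protein, 0.30 ± 0.21. Of 14 E2F and cyclin genes, Ccna2, the cyclin of S phase and early mitosis, had 1.03 ± 0.56 and Rbl2, a relative of the retinoblastoma gene, -0.20 ± 0.21. Rb1 itself was called lower in T-ERG clone 2 than in clone 1 (-0.55 ± 0.14, limma adjusted p = 0.0118).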

How the data were processed

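The deposited values are log2(FPKM + 1), per the file headers and checked on the values: 100% of them gave an FPKM with 2 decimals (within 0.001 hundredths). RSEM 1.3.0, DESeq2 and build mm10 are named in the submitters' processing notes. No source used here states the role of each tool, the aligner, the annotation or whether strand was used in counting. The header repeated 1 replicate number over 2 T-ERG columns. These were used as T-ERG clone 2 libraries a and b, because only clone 2 samples of that genotype had no column; the other libraries carry the replicate numbers of the labels (1 to 5 in clone 1, 6 or 8 to 10 in clone 2). Whole-genome sequencing (4 libraries) was not used here.

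The genotype test used 4 clone means of 5 domes each and the clone tests 5 against 5 domes, with limma 3.58.1 (R 4.3.3; empirical Bayes with intensity trend), two-sided, Benjamini-Hochberg adjusted over 12899 genes with a threshold of 0.05. Some genes had zero sample variance, which limma offset. The log2(FPKM + 1) scale understates changes of low genes. Errors of differences are standard errors. The fits were run on simulated data with known changes. There a minimum share of recovered changes was required of the fit of 5 against 5 domes, but not of the fit on 4 clone means. What share of true genotype differences the 4 clone means can detect is not given here. Members and lists were chosen with earlier results of these data known. Values in every library are given for the member with the highest mean FPKM and the one with the largest genotype difference in each role, and for Gmnn, Cdt1, Ccne1 and Ccne2; other list genes named are the extremes of the genotype difference in each list, and Pold4, Samhd1, Rb1, Epcam and Krt8 in the clone comparisons were named after their values were seen, as were Prim1, Prim2, Rrm2, Mcm10, Fen1 and the 6 mitosis genes. RefSeq coordinates (1-based) refer to GRCm38.p6, of which mm10 is the browser name. The spans of 10 members (Ccne2, Cdc45, Fen1, Gins2, Mcm7, Orc1, Pole2, Rfc4, Rpa1 and Tk1) overlap a gene with a mean FPKM of at least 1, so their reads may not be told apart there.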

Additional observations from a re-analysis of the deposited data

Results flagged for a closer look

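The difference between clone 2 and clone 1 differed between T-ERG and control for 11 of 44 members, 4 higher and 7 lower (limma interaction over 20 libraries, added after the data had been seen, adjusted over 12899 genes). The same term called 9.75% of tested genes higher and 16.7% lower. The counts of members are close to these shares and do not set the members apart from other genes. The difference, T-ERG minus control, was -0.31 for Mcm4 (adjusted p = 0.0253), 0.67 for Mcm10 (0.0182), -1.23 for Gins2 (0.0207), -0.24 for Pcna (0.0138) and 0.74 for Rfc4 (0.0117). It was 0.48 for Prim2 (0.0311), 0.41 for Rrm1 (0.00971), -0.34 for Rrm2 (0.000106), -0.59 for Tk1 (0.0461), -1.36 for Ccne1 (7.72e-05) and -0.84 for Uhrf1 (0.000449). Clone numbers are not shown to match across genotypes, so the sign, the size and the list of called members follow the numbering. The 72 sets of 5 domes examined for outlying libraries did not take in every member. Of these sets, 0 had a library apart from the others by Dixon's criterion, where chance gives about 1 in 20. In sets outside them single libraries did stand apart. Mcm3 had 26.2 FPKM in 1 dome of T-ERG clone 1, against 16.57 to 18.3 FPKM in the others. Rfc5 had 44.68 FPKM in library a of T-ERG clone 2, against 17.19 to 23.91 FPKM in the others.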

How the results depend on the processing

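No alternative run reversed a called difference of a member. The median of T-ERG clone 1 against control clone 2, -0.01, changed sign with median centring (0.06), quantile normalization (0.04) and without control library 9 (0.01), and that of the interaction, -0.13, with a pseudocount of 5 (0.01). The depth behind the FPKM values is unknown, so counting error could not be set against the spread between domes. The genotype rests on 2 clones each; without 1 clone the median difference of the members ran from 0.35 to 1.20. A limma fit on the 20 single libraries, with a random block for clone, called 16 members and 674 genes higher and 724 genes lower, which the 4 clone means did not. That fit counts single domes and sets 1 correlation within clones for all genes, while the genotype still rests on 2 clones each. How much each of these adds to the calls was not tested. In T-ERG the median clone difference was 0.84 with a pseudocount of 0.1, 0.54 with 5 and 0.65 over genes with a mean FPKM of at least 5; in control it was 0.87 and 0.54 with these pseudocounts, 0.68 with median centring and 0.69 with quantile normalization. For T-ERG clone 1 against control clone 2, TPM scaling called 2 members lower, median centring 5 higher, and leaving out single libraries 0 to 1 lower (Rfc2, without control library 9, at -0.43). The median interaction was -0.21 with a pseudocount of 0.1, -0.06 with quantile normalization and -0.18 to -0.08 without single libraries; 4 members were called lower with median centring and with quantile normalization alike, and 2 higher without libraries a and b.

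Dome numbers did not pair libraries: deviations of same-numbered domes correlated by 0.01 to 0.06 in control (5 pairs, 3 best with their own number), -0.01 to 0.05 in T-ERG (3 pairs, 1) and -0.05 to 0.08 between T-ERG clone 1 and control clone 2 (5 pairs, 1). With the replicate block, which left 6 T-ERG libraries, 22 members, 715 genes higher and 655 lower were called between T-ERG clones, and 1 member lower between the middle clones.

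With no filter on low values, Gmnn and Ccne2 lost their T-ERG calls (adjusted p 0.0638 and 0.062) and Gins1, Wdhd1 and Rfc1 their control calls (0.0656, 0.0524 and 0.0548). In the fit of all 20 libraries Rfc3 passed between T-ERG clones (0.0174), and Mcm10 and Pola2 between control clones (0.0202 and 0.0403). In the interaction, Mcm4 (0.0651 and 0.0715), Pcna (0.0552 and 0.0961) and Tk1 (0.0775 and 0.079) lost their calls with median centring and with quantile normalization.

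Single libraries decided these further calls: Gins1 between control clones lost its call without control library 4, 8, 9 or 10 (adjusted p 0.0505 to 0.0615) and Rfc1 without control library 1 or 4 (0.0533 and 0.0569). Pole2 passed between T-ERG clones without library 1 or a (0.0452 and 0.0325), and between control clones Gins3 passed without library 1 (0.0484), Mcm10 without 5 (0.0392) and Pola2 without 7 or 8 (0.0384 and 0.0418). Without libraries a and b, Gins1, Gins2 and Rfc5 lost their T-ERG calls (0.0948, 0.0694 and 0.0616). In the interaction, Tk1 lost its call without any of 13 libraries (0.0565 to 0.0879), Prim2 without any of 7 (0.0512 to 0.061) and Mcm4 without T-ERG library 8 or control library 9 (0.0508 and 0.0513). Cdt1 passed there without T-ERG library 2 (0.0485), Gins3 without control library 5 (0.0457) and Prim1 without control library 4 (0.0116).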
